A study of Caenorhabditis elegans with 30 samples.

Results

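Wild type C. elegans worms that had spent 6 h on plates with 200 mM NaCl were compared with wild type worms on isotonic plates, across every non-control probe set of the Affymetrix C. elegans GeneChip. The comparison used 6 of the 30 arrays in the series, 3 from the 6 h exposure and 3 from the isotonic plates, and 22548 probe sets. Both groups were N2, the laboratory wild type strain, and the RNA came from whole worms. Animals of both groups were synchronized with hypochlorite, reared to young adulthood on 51 mM NaCl plates, and sorted with a COPAS Biosort gated against L4 larvae and younger stages. The 6 h group was moved to 200 mM NaCl as young adults and washed off in hypertonic buffer, whereas the isotonic group stayed at 51 mM NaCl. The labels give no time on the plate for the isotonic arrays, so 6 h of adult age and 6 h of high salt cannot be told apart in this comparison. The series also holds N2 arrays at 15 min, 1 h and 1 generation on 200 mM NaCl, 3 of each, and 5 groups of isotonic mutants that were not used here. Per the methods, the 3 arrays of a group came from individual preparations, chosen by RNA quality. All p-values therefore rest on the spread between preparations within groups. It was estimated over the 15 wild type arrays, 3 per group, except where fewer arrays are stated.

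A worm on high salt loses water and shrinks. It recovers volume by making and taking up organic osmolytes, of which glycerol is the main one in C. elegans, and glycerol-3-phosphate dehydrogenase is the enzyme whose transcript is induced for this. Genes for antimicrobial peptides of the epidermis are also known to respond to high salt.

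After 6 h, the largest rises were in genes for osmolyte uptake and synthesis, antimicrobial peptides, heme handling and lysosomal enzymes. The 20 largest falls included F45D3.4, C06B3.6 and dod-3, genes for a cation pump, a fatty acid desaturase, a sugar transporter, the Mad-like factor mdl-1 and a methionine sulfoxide reductase, and sperm genes. A probe set was called when its moderated test in limma gave an adjusted p of at most 0.01 and the change was at least 3-fold (a log2 fold change of 1.58). By this rule 179 of 22548 probe sets (0.794%) were called, 90 higher at 6 h (0.399%) and 89 lower (0.395%). An adjusted p of at most 0.01 was reached by 685 probe sets and an unadjusted p under 0.05 by 3107. Counted by gene, with 1 probe set for each of 17118 genes, 76 genes were called higher (0.444%) and 65 lower (0.380%), and in all of them the 3 values at 6 h lay outside the range of the 3 isotonic values. The median called rise was a log2 fold change of 2.04 and the median called fall -2.40, while the median over all probe sets was -0.01. Of the called falls, 61 of 89 came from probe sets that can bind more than 1 transcript (suffix _x_at or _s_at), against 37 of 90 called rises.

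Pearson r within a group was 0.992 to 0.998 over all probe sets, and 6 h arrays correlated with isotonic arrays with r between 0.986 and 0.992. Isotonic replicate 3 had the highest median intensity (11.3, against 9.94 and 9.97 on the other isotonic arrays and 9.93 to 10.2 on the 6 h arrays). Without it, 162 probe sets were called, 81 higher and 81 lower. When the 6 arrays were fitted alone, without the 9 arrays of the other wild type exposures that otherwise add to the estimate of the spread, 80 probe sets were called, 54 higher and 26 lower. A mean log2 intensity below 3.37, the median over all probe sets, is called near the background below. Of the called rises, 15 started there on the isotonic arrays, and 14 of the called falls ended there at 6 h, so that the background limits the size of those changes.

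**Figure D1:**
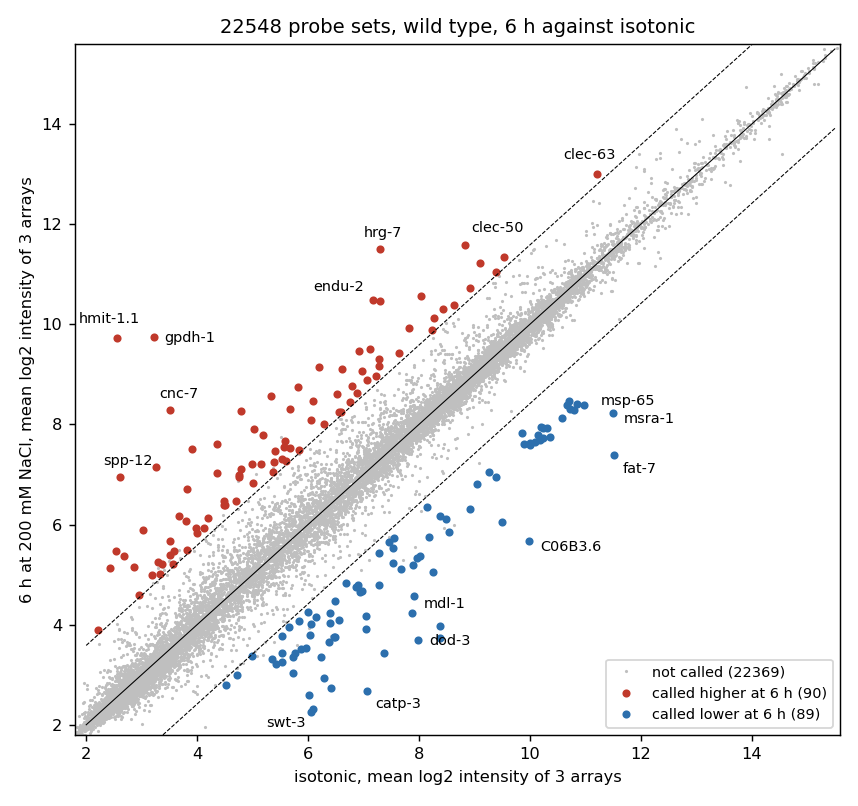
Mean log2 intensity of 3 arrays at 6 h (vertical axis) against the mean of 3 isotonic arrays (horizontal axis) for 22548 probe sets, with called probe sets in colour, equality as a solid line and 3-fold changes as dashed lines. The 90 called rises start from isotonic levels between the background and a log2 intensity above 11, and called falls near msp-65 form a dense group.

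Osmolyte genes held both of the largest rises of the comparison. The gene hmit-1.1 (Y51A2D.4), which encodes a proton-coupled myo-inositol transporter, had log2 intensities of 9.77, 9.89 and 9.51 on the 6 h arrays, against 2.40, 2.38 and 2.90 on the isotonic arrays. The isotonic values were near the background and the groups lay far apart, with a log2 fold change of 7.16 (SE 0.242, adjusted p = 1.86e-08). For gpdh-1 (F47G4.3), the inducible glycerol-3-phosphate dehydrogenase, the values were 9.74, 9.66 and 9.85 at 6 h, against 3.16, 3.37 and 3.12 on isotonic plates, a log2 fold change of 6.53 (SE 0.283, adjusted p = 1.78e-07). Their paralogs moved far less. The log2 fold change was 1.24 for hmit-1.3 (adjusted p = 3.99e-05) and 0.74 for gpdh-2 (adjusted p = 0.000325), both under 3-fold, and -0.00 for hmit-1.2. Thus 2 of 5 genes of the glycerol and inositol list were called higher, against 0.444% of all genes, and the median log2 fold change of the list was 1.24.

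Transporters for other small solutes gave single rises. The betaine transporter gene snf-3 had log2 intensities of 6.14, 6.28 and 6.12 at 6 h, against 3.89, 3.91 and 3.23 on isotonic plates (log2 fold change 2.50, SE 0.196, adjusted p = 1.45e-05). It was the 1 called gene among 12 snf transporters (against 0.444% of all genes called higher). Of the 12, 4 had a mean above the background in either group, and the median was -0.00. Among 10 aquaporin genes, which encode water and glycerol channels, aqp-8 was the 1 called (against 0.444% of all genes called higher). It had 7.23, 7.14 and 7.38 at 6 h, against 5.81, 5.54 and 4.83 on isotonic plates (log2 fold change 1.86, adjusted p = 0.000743). The lowest isotonic value of aqp-8 was that of replicate 3, and without this array its log2 fold change was 1.58, just under the threshold. Fitted on the 6 arrays alone, aqp-8 had an adjusted p of 0.0382. Of the other aquaporins, aqp-11 (0.77) and aqp-4 (0.69) had adjusted p-values of 0.0067 and 0.00172 at sizes under 3-fold.

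Among genes for enzymes that release glucose from larger sugars, 1 of 4 aagr genes was called higher. The same held for 1 of 8 trehalose genes, against 0.444% of all genes. The gene aagr-1, for an acid alpha-glucosidase-related enzyme, had log2 intensities of 8.18, 8.24 and 8.37 at 6 h, against 4.94, 4.98 and 4.43 on isotonic plates, a log2 fold change of 3.48 (SE 0.183, adjusted p = 7.88e-07). The 3 other aagr genes were not called, at log2 fold changes of 1.44 (aagr-2, adjusted p = 2.03e-06), 0.26 (aagr-3) and 0.02 (aagr-4). In the trehalose list, the called gene was the trehalase gene tre-3, and the other 4 tre genes lay between -0.11 (tre-2) and 0.13 (tre-4). Its values were 7.46, 7.63 and 7.56 at 6 h, against 6.14, 5.92 and 4.65 on isotonic plates (log2 fold change 1.98, adjusted p = 0.00201), and isotonic replicate 3 was the lowest array. Without isotonic replicate 3 the log2 fold change of tre-3 was 1.52, under the threshold, without 6 h replicate 2 its adjusted p was 0.011, and on the 6 arrays alone it was 0.106. The trehalose synthase genes differed in sign, at 0.84 for tps-1 (adjusted p = 0.102) and -0.57 for tps-2 (adjusted p = 0.0292), and neither was called.

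**Figure D2:**
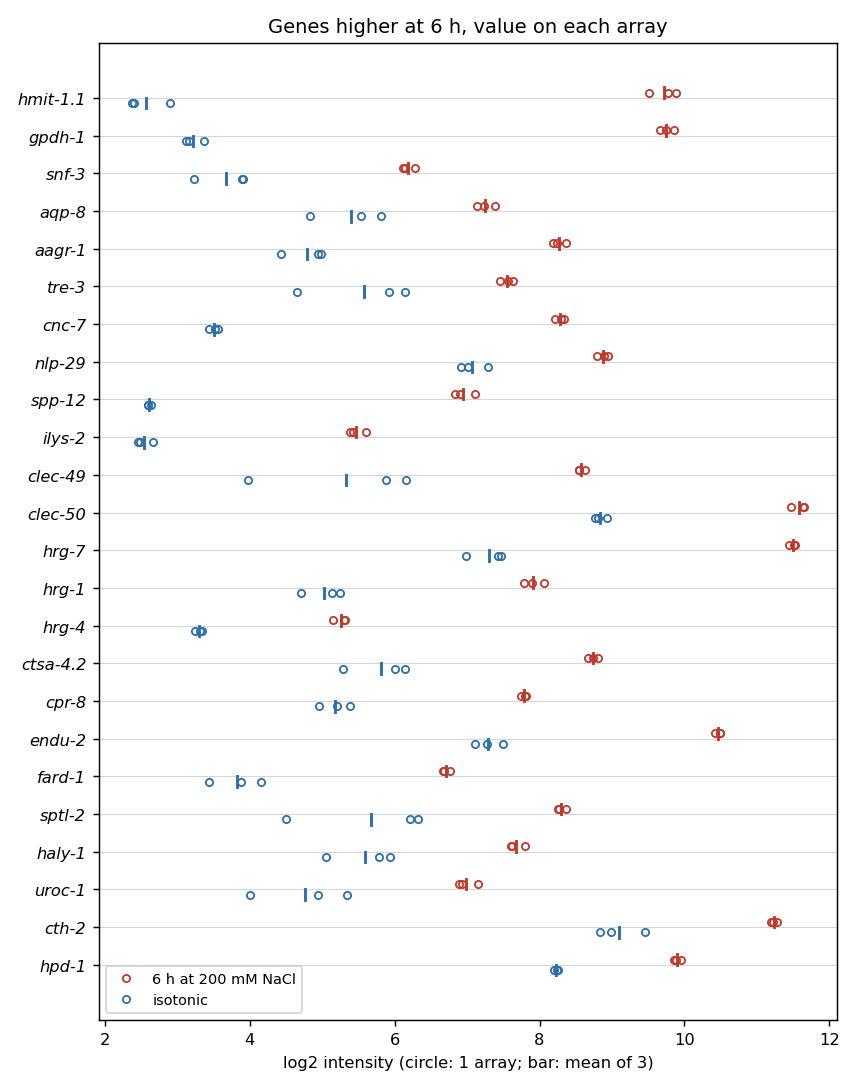
Log2 intensity on each of the 3 arrays at 6 h (red) and on each of the 3 isotonic arrays (blue) for 24 genes called higher, with bars for the means. In every gene shown the 6 h values lie to the right of all isotonic values, and the isotonic circles are widest apart for clec-49, sptl-2 and tre-3, where replicate 3 is the lowest.

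Secreted antimicrobial and carbohydrate-binding proteins had called rises in some genes, not in whole families. The caenacin peptide gene cnc-7 had log2 intensities of 8.22, 8.34 and 8.30 at 6 h, against 3.44, 3.52 and 3.56 on isotonic plates, a log2 fold change of 4.78 (SE 0.326, adjusted p = 5.09e-06). Its family went both ways. Of 8 cnc genes, cnc-7 and cnc-3 (1.95, adjusted p = 0.00774) were called higher and cnc-4 lower (-1.75, adjusted p = 0.00122), and the median log2 fold change was -0.25. Over all genes, 0.444% were called higher and 0.380% lower. The call of cnc-3 was lost without each array other than isotonic replicate 1, with log2 fold changes between 1.46 and 2.05, and that of cnc-4 was lost without isotonic replicate 2, at -1.56. Of 10 epidermal nlp genes, which encode neuropeptide-like antimicrobial peptides, nlp-29 alone was called (against 0.444% of all genes called higher). It had 8.80, 8.95 and 8.89 at 6 h, against 6.91, 7.01 and 7.29 on isotonic plates (log2 fold change 1.81, adjusted p = 0.00095). The gene nlp-33 stood at -1.14 (adjusted p = 0.00364), under 3-fold. The probe sets of cnc-7 (_s_at), cnc-3 and nlp-29 (both _x_at) can bind more than 1 transcript. Signal from related peptide genes therefore cannot be separated with certainty.

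A pore-forming peptide gene and a lysozyme gene went from near the background to clear signal. The values of spp-12 (T22G5.7), a saposin-like caenopore gene, were 6.90, 6.83 and 7.11 at 6 h, against 2.60, 2.59 and 2.64 on isotonic plates. This was a log2 fold change of 4.34 with the smallest SE among the largest rises (0.0533, adjusted p = 1.7e-12). Of the other 17 measured saposin-like genes none was called, and the list had a median of 0.02. The invertebrate lysozyme gene ilys-2 had 5.42, 5.60 and 5.39 at 6 h, against 2.46, 2.66 and 2.48 on isotonic plates (log2 fold change 2.94, SE 0.171, adjusted p = 1.48e-06). It was the 1 called gene of 16 lysozyme genes (against 0.444% of all genes called higher).

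C-type lectin genes, which encode secreted or membrane proteins with a carbohydrate-binding fold, had the most called rises among the lists. Of 220 measured clec genes 8 were called higher (against 0.444% of all genes) and 1 lower, although 47 of the 220 had a mean above the background in either group and the median was -0.01. The gene clec-50 had 11.65, 11.47 and 11.64 at 6 h, against 8.77, 8.93 and 8.81 on isotonic plates (log2 fold change 2.75, SE 0.0739, adjusted p = 3.4e-09). Its relative clec-48 reached 9.44, 9.37 and 9.71 at 6 h, against 7.22, 7.32 and 6.83 on isotonic plates (log2 fold change 2.38, adjusted p = 3.54e-07). The isotonic values of clec-49 were spread widely, at 6.15, 5.88 and 3.97, against 8.55, 8.63 and 8.54 at 6 h (log2 fold change 3.24, SE 0.427, adjusted p = 0.000662), and on the 6 arrays alone clec-49 had an adjusted p of 0.0798. The probe sets of clec-49 and clec-50 carry the suffix _s_at, so signal from related lectin transcripts cannot be separated with certainty. The other called rises were clec-150 (1.87), clec-63 (1.81), clec-186 (1.78), clec-62 (1.74) and clec-85 (1.70). The brightest of them was clec-63, at mean log2 intensities of 13.01 at 6 h and 11.20 on isotonic plates. The 1 called fall was clec-5, with 5.56, 5.63 and 5.80 at 6 h, against 7.74, 7.59 and 7.06 on isotonic plates (log2 fold change -1.80).

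Heme handling genes made up a group that was put together after the values had been seen. C. elegans cannot make heme and takes it up from food through HRG transporters in the intestine. The largest change was in hrg-7 (C15C8.3), whose product is an aspartic protease-like protein secreted by the intestine that signals heme status to other tissues. It had 11.45, 11.51 and 11.53 at 6 h, against 7.43, 7.47 and 6.99 on isotonic plates, a log2 fold change of 4.2 (SE 0.136, adjusted p = 1.38e-08). The heme transporter gene hrg-1 had 7.89, 8.06 and 7.79 at 6 h, against 5.13, 5.25 and 4.71 on isotonic plates (log2 fold change 2.88, SE 0.188, adjusted p = 3.44e-06). For the intestinal heme importer gene hrg-4 the values were 5.15, 5.30 and 5.31 at 6 h, against 3.24, 3.31 and 3.34 near the background on isotonic plates (log2 fold change 1.96, SE 0.175, adjusted p = 3.99e-05). All 3 are on the uptake and signalling side. The heme exporter gene mrp-5 stood at 0.76 (adjusted p = 0.000402), under 3-fold, and hrg-3, which encodes a heme carrier for embryos, at -0.04. In all, 3 of 12 genes were called higher (against 0.444% of all genes) and 0 lower (against 0.380%). The median log2 fold change was 0.52.

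Among digestive and lysosomal proteases, cpr-8 was the called gene, where 0.444% of all genes were called higher. Of 26 measured aspartyl and cysteine protease genes, 15 had an unadjusted p under 0.05 with a positive sign and 1 with a negative sign, where 1256 and 1155 of all 17118 genes did, and the median log2 fold change was 0.46. The cathepsin B-like gene cpr-8 had 7.80, 7.82 and 7.75 at 6 h, against 5.39, 5.20 and 4.95 on isotonic plates (log2 fold change 2.61, SE 0.203, adjusted p = 1.42e-05). The cathepsin D-like gene asp-4 (0.99, adjusted p = 1.03e-06) and asp-3 (0.97, adjusted p = 4.19e-06) passed the p threshold at about 2-fold. The gene with a negative sign was the gut cysteine protease gene cpr-1 (-0.83, adjusted p = 3.45e-05), with 12.76, 12.76 and 12.84 at 6 h, against 13.43, 13.62 and 13.79 on isotonic plates. Outside this list, the serine carboxypeptidase gene ctsa-4.2 had 8.74, 8.67 and 8.81 at 6 h, against 6.14, 6.01 and 5.29 on isotonic plates (log2 fold change 2.93, adjusted p = 9.52e-06). The endoribonuclease gene endu-2 was tight in both groups, at 10.49, 10.49 and 10.42 at 6 h, against 7.28, 7.49 and 7.11 on isotonic plates (log2 fold change 3.17, SE 0.102, adjusted p = 1.38e-08). The half-molecule ABC transporter gene haf-9, whose product resides in the lysosome-related gut granules, rose by a log2 fold change of 1.85 (adjusted p = 0.000296). Of 18 genes for the vacuolar proton pump, which acidifies lysosomes, none was called, and the median was 0.14.

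Amino acid degradation enzymes were among the rises. In histidine degradation both early steps rose, and 2 of 3 genes were called higher (against 0.444% of all genes). This list was drawn up after the values had been seen. The histidine ammonia-lyase gene haly-1 had 7.62, 7.61 and 7.80 at 6 h, against 5.94, 5.78 and 5.05 on isotonic plates (log2 fold change 2.09, SE 0.205, adjusted p = 7.83e-05). The urocanate hydratase gene uroc-1 had 6.89, 6.93 and 7.15 at 6 h, against 5.34, 4.94 and 4.0 on isotonic plates (log2 fold change 2.23, SE 0.280, adjusted p = 0.00048), and amdh-1, for the next step, stood at 0.26. On the 6 arrays alone the adjusted p was 0.0231 for haly-1 and 0.0517 for uroc-1. In tyrosine degradation, 1 of 5 genes was called. All 5 had an unadjusted p under 0.05 with a positive sign, where 1256 of all 17118 genes did. The called gene was hpd-1, the 4-hydroxyphenylpyruvate dioxygenase gene, with 9.95, 9.86 and 9.88 at 6 h, against 8.25, 8.24 and 8.20 on isotonic plates (log2 fold change 1.66, SE 0.0736, adjusted p = 1.78e-07). The following enzymes of that path stood at 1.22 (hgo-1, adjusted p = 3.62e-06), 1.3 (gst-42, adjusted p = 0.000158) and 0.75 (fah-1, adjusted p = 7.68e-05). In transsulfuration, which makes cysteine from homocysteine, the cystathionine gamma-lyase gene cth-2 had 11.20, 11.22 and 11.28 at 6 h, against 9.46, 8.98 and 8.84 on isotonic plates (log2 fold change 2.14, adjusted p = 1.15e-05). Its paralog cth-1 lay just under the size threshold at 1.58 (adjusted p = 0.000885). This list of 11 genes was also drawn up after the values had been seen, and its median was 0.08.

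Lipid genes split between several rises and 1 very large fall. Among 58 genes of acyl-CoA metabolism, 3 were called higher (against 0.444% of all genes), and the median was 0.14. They were the acyl-CoA synthetase genes acs-14 (2.09, adjusted p = 1.03e-06) and acs-22 (2.08, adjusted p = 2.99e-05) and the peroxisomal acyl-CoA oxidase gene acox-1.5 (1.75, adjusted p = 8.71e-05). The largest value of the list, 2.14 for acox-1.1, missed the call (adjusted p = 0.0123). On the 6 arrays alone acs-22 had an adjusted p of 0.014. The fatty acyl-CoA reductase gene fard-1, needed for ether lipids, had 6.68, 6.67 and 6.77 at 6 h, against 4.15, 3.88 and 3.43 on isotonic plates (log2 fold change 2.88, SE 0.220, adjusted p = 1.23e-05). The serine palmitoyltransferase gene sptl-2, for the first step of sphingolipid synthesis, rose by 2.62 (adjusted p = 0.00363), with 8.37, 8.27 and 8.26 at 6 h, against 6.32, 6.21 and 4.5 on isotonic plates, where replicate 3 stood well below the others. Its adjusted p was between 0.0148 and 0.0181 without any 1 of the 3 arrays at 6 h, and the call was lost. Of the lipid-binding proteins, lbp-5 (1.66) and far-3 (1.65) were called just above the threshold, and without isotonic replicate 2 both were under it (1.58 and 1.55).

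The fall was in fat-7 (F10D2.9), which encodes a stearoyl-CoA delta-9 desaturase that makes oleic acid. Its log2 intensities were 7.36, 7.35 and 7.43 at 6 h, against 11.74, 11.43 and 11.40 on isotonic plates, a log2 fold change of -4.14 (SE 0.111, adjusted p = 3.4e-09). The groups were tight and far apart. It stood alone among 15 desaturase and elongase genes, whose median was 0.47. Its close paralog fat-6 was at -0.22 (adjusted p = 0.442), and the palmitoyl-CoA desaturase gene fat-5 at 1.3 (adjusted p = 0.02). The elongase genes elo-6 (1.42, adjusted p = 0.000852) and elo-2 (0.98, adjusted p = 0.0107) pointed upwards without being called. The vitellogenin genes, for the yolk lipoproteins, had no call among 5 and a median of 0.08.

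Other single members of transporter and pump families fell to the background. The P-type cation ATPase gene catp-3 (C09H5.2) had 2.29, 2.75 and 3.0 at 6 h, against 6.90, 7.17 and 7.12 on isotonic plates, a log2 fold change of -4.38 (SE 0.401, adjusted p = 4.69e-05). The other genes of the sodium and potassium pump list were between -0.25 and 0.49, with none called. The SWEET sugar transporter gene swt-3 had 2.27, 2.25 and 2.27 at 6 h, against 6.02, 6.41 and 5.71 on isotonic plates (log2 fold change -3.78, SE 0.344, adjusted p = 4.52e-05). The mean of swt-3 was also near the background at 15 min, 1 h and 1 generation (3.25, 3.03 and 3.15). No call separated 6 h from these exposures (adjusted p = 0.104, 0.314 and 0.235). The other genes of the SWEET and glucose transporter list were between -0.52 and 0.54. For Y41C4A.32 the values were 2.31, 2.30 and 2.31 at 6 h, against 6.47, 6.44 and 5.36 on isotonic plates (log2 fold change -3.79, adjusted p = 1.48e-06). Its mean was equally low at 15 min, 1 h and 1 generation, with log2 fold changes of -3.78, -3.77 and -3.80 against the isotonic arrays, so that signal was seen on the isotonic arrays alone.

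Of 5 genes for the Max network of transcription factors, 2 were called lower (against 0.380% of all genes). This list was made after the values had been seen. Mad-like and Max-like proteins bind E-box sequences as dimers. The Mad-like gene mdl-1 (R03E9.1) had 4.09, 4.09 and 4.55 at 6 h, against 8.0, 7.83 and 7.82 on isotonic plates, a log2 fold change of -3.64 (SE 0.475, adjusted p = 0.000614). The gene mxl-3, whose product represses lysosomal lipase genes in fed worms, had 4.38, 4.62 and 5.03 at 6 h, against 7.01, 6.93 and 6.96 on isotonic plates (log2 fold change -2.29, SE 0.286, adjusted p = 0.000452). Both gaps were wide compared with the spread within groups. The partner genes mxl-1 (-0.09) and mxl-2 (-0.04) showed no call, and mml-1 stood at -0.75 (adjusted p = 0.455). Of 11 lipase genes, lipl-5 was highest, at 1.37 (adjusted p = 1.78e-07) and under 3-fold. Against isotonic it stood at 1.76, 1.29 and 2.18 at 15 min, 1 h and 1 generation. The means of mxl-3 at these times were 6.84, 5.79 and 6.69, against 6.97 on isotonic plates. Whether the 2 genes are linked was not tested.

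The methionine sulfoxide reductase gene msra-1 (F43E2.5), which repairs oxidised methionine, was the brightest gene among the largest falls apart from fat-7. Its values were 8.24, 8.05 and 8.39 at 6 h, against 11.49, 11.44 and 11.55 on isotonic plates, a log2 fold change of -3.27 (SE 0.173, adjusted p = 8.32e-07). The other antioxidant genes did not follow, with none of 26 called and the catalase gene ctl-2 at 1.3 (adjusted p = 3.24e-05). The gene dod-3, known as a gene that lies downstream of DAF-16, had 3.34, 3.69 and 4.07 at 6 h, against 7.32, 7.96 and 8.66 on isotonic plates (log2 fold change -4.28, SE 0.547, adjusted p = 0.00053, and 0.0107 on the 6 arrays alone). The gene with the largest fall by size, F45D3.4, was less certain, with 3.25, 3.75 and 4.94 at 6 h, against 8.16, 8.51 and 8.49 on isotonic plates (log2 fold change -4.40, SE 0.755, adjusted p = 0.00427). Its adjusted p was between 0.0125 and 0.025 without any 1 array other than 6 h replicate 3. Similarly, C06B3.6 had 5.39, 5.73 and 5.90 at 6 h, against 9.68, 10.19 and 10.09 on isotonic plates (log2 fold change -4.31, SE 0.687, adjusted p = 0.00259), and its adjusted p was between 0.0117 and 0.0146 without 1 of 4 arrays (6 h replicates 1 and 2, isotonic replicates 2 and 3). In both genes the 6 h values lay well below all isotonic values.

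**Figure D3:**
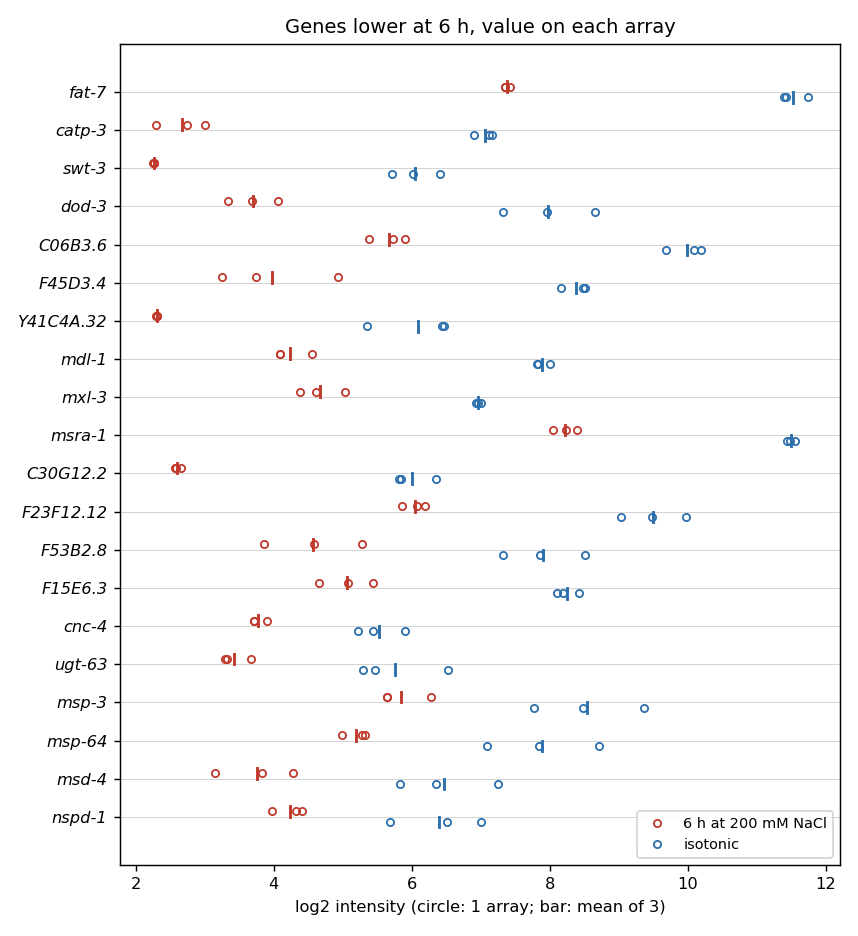
Log2 intensity on each of the 3 arrays at 6 h (red) and on each of the 3 isotonic arrays (blue) for 20 genes called lower, with bars for the means. The 6 h values of swt-3, Y41C4A.32 and C30G12.2 sit at the background with almost no spread, and those of F45D3.4 and F53B2.8 are the widest apart.

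In the 71 genes called among those named by rule, the 2 groups did not overlap, so leaving out 1 array could not change the direction. Of the 71, 55 were called whichever array of the 2 groups was left out. The 16 others included, besides those given above, gst-10 (2.28), nspe-1 (2.70), ugt-63 (-2.33), msd-2 (-2.47), F26A3.4 (-2.64), R11F4.1 (-2.69) and F53B2.8 (-3.33). Without 1 array, the log2 fold changes of these ranged from 1.81 to 2.48 for gst-10, from 2.41 to 2.63 for nspe-1, from -2.57 to -1.94 for ugt-63, from -2.54 to -2.34 for msd-2, from -2.72 to -2.42 for F26A3.4, from -2.83 to -2.53 for R11F4.1 and from -3.35 to -2.97 for F53B2.8 wherever the call was lost. The call of ugt-63 was lost without each of the 6 arrays, that of gst-10 and R11F4.1 without each but isotonic replicate 1, and that of F26A3.4 without each but isotonic replicate 3. For R11F4.1 and F26A3.4 the groups were apart on all arrays. The call of msd-2 was lost without each 6 h array, that of nspe-1 without replicates 1 and 2 at 6 h or isotonic replicates 2 and 3, and that of F53B2.8 without replicate 2 or 3 of either group. Leaving out 6 h replicate 2 or isotonic replicate 2 cost the most calls, 12 each. On the 6 arrays alone, 30 of the 71 genes were not called, among them nhr-8, cnc-3, cnc-4, sptl-2, F45D3.4, msp-3 and msp-64, with an adjusted p of at most 0.145. With 32 added to each intensity, which shrinks the changes of dim genes, 33 of the 71 were not called, among them hrg-4 (0.75), ilys-2 (1.01), snf-3 (1.21), fard-1 (1.56), swt-3 (-1.42) and mxl-3 (-1.44).

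Several classic stress and regulatory families were without a call. Of 12 small heat shock protein genes, none was called higher or lower, the median was -0.21, and hsp-12.3 was lowest, with 3.80, 4.23 and 4.16 at 6 h, against 5.64, 5.64 and 5.53 on isotonic plates (log2 fold change -1.54, adjusted p = 8.16e-05), just under 3-fold. Of 13 genes of protein folding in the endoplasmic reticulum none was called. In that list 10 genes had an unadjusted p under 0.05 with a negative sign, where 1155 of all 17118 genes did, the median was -0.44, and pdi-2 (-0.80, adjusted p = 0.000125) and the BiP gene hsp-4 (-0.54, adjusted p = 2.82e-05) were examples, hsp-4 with 11.93, 12.03 and 11.96 at 6 h, against 12.52, 12.48 and 12.54 on isotonic plates. No cuticle collagen gene of the col family was called, and the median of the list was -0.12. Of its genes, 79 had a mean above the background in either group. In the whole list, 40 genes had an unadjusted p under 0.05 with a negative sign and 1 with a positive sign. Over all 17118 genes these numbers were 1155 and 1256. The collagen gene col-124 had 13.37, 13.44 and 13.43 at 6 h, against 14.64, 14.47 and 14.52 on isotonic plates (log2 fold change -1.13, adjusted p = 5.23e-07). The GATA factor genes elt-2, which acts in the intestine, and elt-3, which acts in the epidermis, were not called, at 0.12 (adjusted p = 0.808) and 0.84 (adjusted p = 0.0404). Of 254 nuclear hormone receptor genes, 78 of them above the background in either group, 1 was called, close to the share of all genes called higher (0.444%). It was nhr-8 (1.99, adjusted p = 0.00165), a receptor with roles in sterol and xenobiotic responses.

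**Figure D4:**
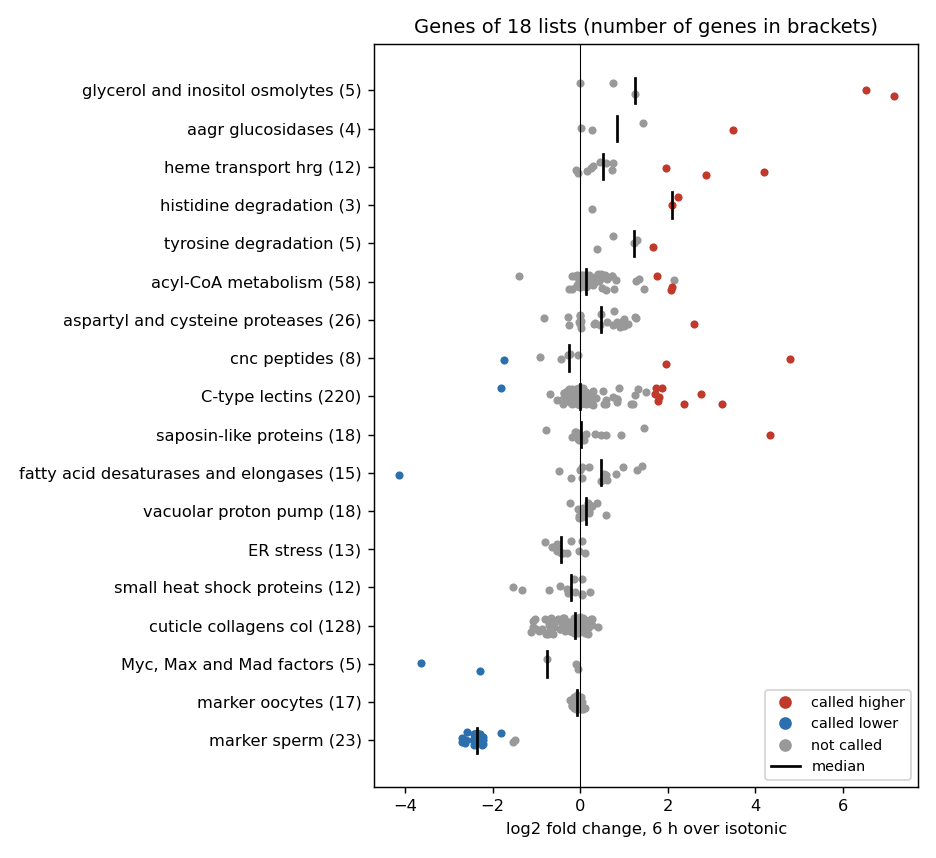
Log2 fold change of 6 h over isotonic for each gene of 18 lists, 1 point per gene, with called genes in colour and the median of the list as a bar. Most lists are centred close to 0 with 1 to 3 genes far out, whereas the sperm list lies to the left as a whole, with 21 of 23 genes called lower, and the oocyte list lies near 0.

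Sperm genes formed the largest block among the falls. Major sperm proteins, encoded by the msp genes, make up the motility cytoskeleton of nematode sperm, and in the hermaphrodite sperm is made before oocytes and used up as eggs are fertilised. Of 23 measured msp genes, 21 were called lower at 6 h (against 0.380% of all genes), none higher, and the median log2 fold change was -2.36. The gene msp-3 had 5.64, 5.64 and 6.28 at 6 h, against 8.49, 7.77 and 9.37 on isotonic plates (log2 fold change -2.69, SE 0.330, adjusted p = 0.000402). For msp-64 the values were 5.33, 4.99 and 5.28 at 6 h, against 7.85, 7.10 and 8.72 on isotonic plates (log2 fold change -2.69, adjusted p = 0.000719). The groups did not overlap, yet the isotonic arrays differed among themselves by more than the 6 h arrays did. Among the genes most apart at 6 h, msp-65 was bright, with 8.36, 7.94 and 8.85 at 6 h, against 11.12, 10.41 and 11.41 on isotonic plates (log2 fold change -2.59, adjusted p = 0.000102). Most other sperm genes were not called. Of 49 genes in the spermatogenesis list, 20 of them above the background, 3 were called lower (nspd-1, nspd-2 and nspd-4, against 0.380% of all genes), and the median was -0.04. Of 8 msd and nspd genes, a list made after the values had been seen that shares nspd genes with the spermatogenesis list, 5 were called lower (against 0.380% of all genes). The small-peptide gene nspd-1 had 3.98, 4.32 and 4.41 at 6 h, against 6.52, 5.68 and 7.01 on isotonic plates (log2 fold change -2.17, adjusted p = 0.000868), and msd-4, which encodes a protein with a major sperm protein domain, had 3.15, 4.28 and 3.83 at 6 h, against 6.35, 5.83 and 7.25 on isotonic plates (log2 fold change -2.72, adjusted p = 0.00089).

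In all, 38 of 91 probe sets for sperm genes were called lower, so they made up 38 of the 89 called falls, and 51 falls remained without them. All 23 msp probe sets carry a suffix for shared sequence, and msp genes are nearly identical to each other, so the 21 calls are not 21 independent measurements and the level of a single msp gene is uncertain. When the 6 arrays were fitted alone, 2 of the sperm probe sets were called, and the adjusted p of the 38 was between 0.0076 and 0.103. Between 35 and 41 sperm probe sets were called without any 1 array. In whole worms, fewer sperm and less sperm RNA per cell cannot be told apart. For the sperm genes too, 6 h of adult age and 6 h of high salt cannot be told apart.

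Sperm levels also set the 6 h arrays apart from the other exposures. Averaged over the 23 msp genes, the log2 intensity was 8.91, 8.26 and 9.41 on the isotonic arrays, 11.42, 11.42 and 11.47 at 15 min, 10.75, 10.44 and 10.11 at 1 h, 6.49, 6.32 and 6.85 at 6 h, and 10.54, 10.44 and 10.52 at 1 generation. The 6 h arrays were thus the lowest of the wild type series and the isotonic arrays the next lowest, with no overlap between 6 h and any other group. All 23 msp genes were called lower at 6 h than at 15 min, 1 h and 1 generation, with median log2 fold changes of -4.95, -3.96 and -4.06. The oocyte list, 17 genes such as oma-1 and rme-2, was close to level, at 12.47, 12.52 and 12.47 at 6 h, against 12.59, 12.57 and 12.51 on isotonic plates, with none called and a median of -0.08. The embryo list of 40 genes, 11 of them above the background in either group, averaged between 3.21 and 3.25 at 6 h and between 3.21 and 3.4 on isotonic plates, with none called. No gene of the intestine, epidermis, muscle, pharynx, neuron or coelomocyte marker lists was called, and the medians of these lists lay between -0.21 and 0.42. Only 3 of 5 pharynx, 5 of 8 neuron and 1 of 3 coelomocyte genes were above the background in either group. Whether the sperm content of the worms moved with any other gene change at 6 h was not tested.

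**Figure D5:**
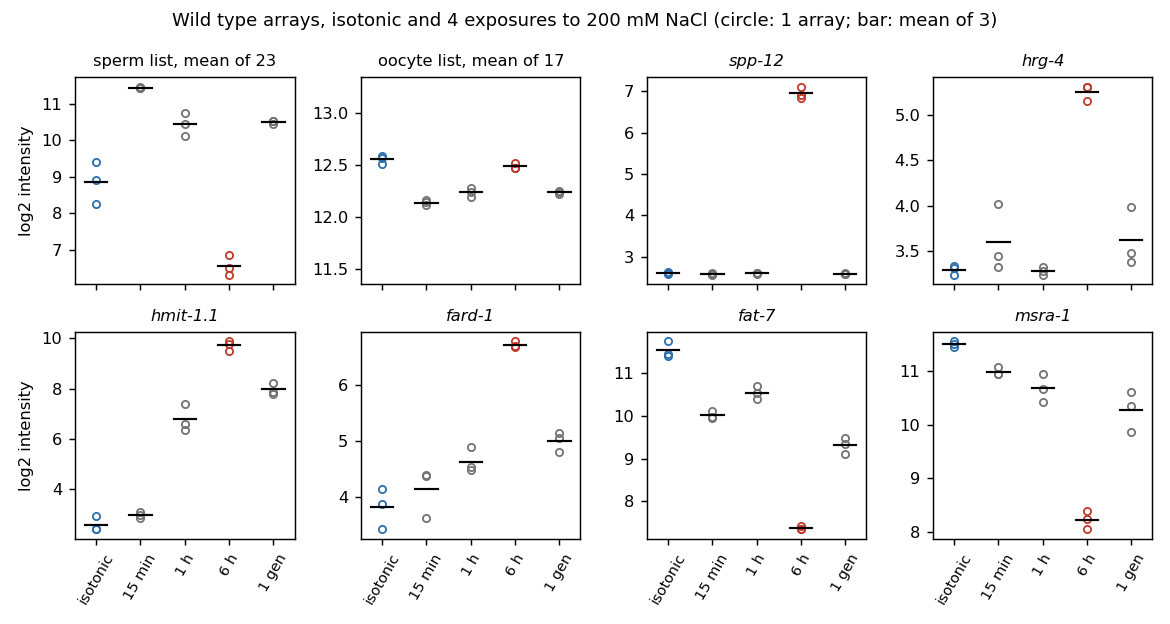
Log2 intensity on each of the 15 wild type arrays, in the order isotonic, 15 min, 1 h, 6 h and 1 generation, for the mean of 23 sperm genes, the mean of 17 oocyte genes and 6 single genes, with bars for the means of 3 arrays. In each of the 6 single genes and in the sperm list the 6 h arrays (red) do not overlap any other group, whereas the oocyte list spans 12.11 to 12.59 over all arrays. The vertical scales differ between panels.

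Compared directly with the other exposures, the 6 h arrays differed at 198 probe sets from 15 min (0.878%), at 228 from 1 h (1.01%) and at 124 from 1 generation (0.550%). Most of these were lower at 6 h, 163, 184 and 108 of them, and sperm genes gave 51, 46 and 47 of those. A probe set was counted as set apart at 6 h when it was called in the same direction against all 4 other wild type groups, which held for 53 probe sets (0.235%), 5 higher and 48 lower. All 4 tests share the 6 h arrays. Without listed sperm genes and the msp, msd and nspd families, 15 of the 53 remained, and without probe sets of shared sequence, 8. The 15 included ZK546.3, ZK1248.4, F58A6.9 and Y59H11AM.1. Like the msp genes, these had their highest mean at 15 min and their lowest at 6 h. For ZK546.3 the means were 5.97 on isotonic plates and 8.93, 7.72, 3.53 and 7.80 at 15 min, 1 h, 6 h and 1 generation. Whether these are sperm genes was not tested.

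By gene, 4 were higher at 6 h than in every other group, namely hmit-1.1, spp-12, fard-1 and hrg-4. The pattern of spp-12 was the sharpest, with mean log2 intensities of 6.94 at 6 h, against 2.61, 2.59, 2.60 and 2.59 in the isotonic, 15 min, 1 h and 1 generation groups, so that it was near the background everywhere else. The level of hrg-4 at 6 h was higher than at 15 min by a log2 fold change of 1.65, than at 1 h by 1.97 and than at 1 generation by 1.63 (adjusted p = 0.000109, 3.03e-05 and 0.000172). In contrast, hmit-1.1 was already raised at 1 h and stayed raised after 1 generation, with mean log2 intensities of 2.96, 6.77, 9.73 and 7.97 at 15 min, 1 h, 6 h and 1 generation. The gene fard-1 averaged 4.14, 4.63, 6.70 and 5.00 in the same order. Among the genes lower at 6 h than in every other group, fat-7 and msra-1 had the largest changes against the isotonic arrays outside the sperm lists. Against the other exposures ZK546.3 changed more, by -5.40 from 15 min, -4.19 from 1 h and -4.28 from 1 generation, where fat-7 stood at -2.63, -3.16 and -1.92. Mean log2 intensities of fat-7 were 11.53 on isotonic plates and 10.01, 10.54, 7.38 and 9.31 at 15 min, 1 h, 6 h and 1 generation. For msra-1 they were 11.49 on isotonic plates and 10.99, 10.67, 8.23 and 10.28 at the same times.

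For other leading genes no call separated 6 h from every other exposure. The rises of aagr-1, clec-48, clec-50, haly-1 and cth-2 were also called against isotonic at 15 min, 1 h and 1 generation. None of these genes was called between 6 h and another exposure. For haly-1 the log2 fold changes were 2.20, 1.82 and 2.32 at those times, and 2.09 at 6 h. The level of cnc-7 at 6 h was higher than at 15 min and 1 h by log2 fold changes of 5.16 and 3.61 (adjusted p = 1.59e-06 and 3.34e-05), and differed from that at 1 generation by 0.28 (SE 0.326, adjusted p = 0.984). Likewise ilys-2 was higher than at 15 min and 1 h by 2.90 and 3.08 and differed from 1 generation by 0.29 (adjusted p = 0.578). The pump gene catp-3 was lower than at 15 min and 1 h by -4.51 and -5.10 and differed from 1 generation by -0.41 (adjusted p = 0.886). For gpdh-1 the 6 h level was below that at 1 h, by -2.04 (adjusted p = 0.000982), above that at 15 min by 2.04 (adjusted p = 0.000879), and 1.54 above that at 1 generation (adjusted p = 0.00853), under 3-fold. The gene hpd-1 was lower at 6 h than at 1 h by -1.79 (adjusted p = 1.39e-07), and its difference from 15 min was 0.58 (adjusted p = 0.000462), under 3-fold. The gene C17H12.8 was 3.95 higher at 6 h than at 1 generation (adjusted p = 3.95e-07) and differed from 1 h by -0.24. The antimicrobial peptide gene cnc-4 was lower at 6 h than at 1 h by -4.14 (adjusted p = 2.05e-06). Without isotonic replicate 2 its fall against the isotonic arrays was -1.56, under 3-fold.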

How the data were processed

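RNA of 15 wild type samples was hybridised to Affymetrix C. elegans arrays, 3 per group. The authors background-corrected and normalized the arrays by GC-RMA (Partek software), and deposited linear, not log, intensities. Of 22625 probe sets, 77 controls were left out, and the others stood for 1 gene (20766), several (887) or none named (895). The log2 of each intensity was taken, and 15 arrays were fitted by group in limma 3.58.1 (R 4.3.3). Contrasts were moderated, and p-values were adjusted by Benjamini-Hochberg over 22548 probe sets. SAM, which the study used, was not run. Lists used 1 probe set per gene, the brightest. Genes were named when among the 20 largest rises or falls with separate values, the 4 largest called changes of a list (or the 2 largest changes where none was called), the 10 most apart from all groups, or named in the study (gpdh-1, elt-2, elt-3, hsp-4). Other list members in the text were named after their values were seen. The members and lists were chosen with earlier results of these data known. The fit was tested on simulated data. Alternatives covered filters, scaling, arrays in the fit, thresholds, a replicate block and left-out arrays. With 3 arrays per group, their number limits the precision. Tables were made with Python 3.11.15 and pandas 2.3.3, and figures with matplotlib 3.10.9.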

Additional observations from a re-analysis of the deposited data

Results flagged for a closer look

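The change at 6 h and the change at another exposure, both against the isotonic arrays, ran in opposite directions at a number of probe sets, and the difference between the 2 exposures was itself called in limma. Of the probe sets called lower at 6 h, 45 were called higher at 15 min, 15 at 1 h and 24 at 1 generation. No probe set was called higher at 6 h and lower at another exposure. Together these were 46 probe sets, and 38 of them belonged to listed sperm genes or the msp, msd and nspd families. Of the others, all but cnc-4 were called higher at 15 min, as the msp genes were. ZK546.3, for example, stood at -2.44 at 6 h and at 2.96 at 15 min. The caenacin peptide gene cnc-4 was called higher at 1 h alone, and stood at -1.75 at 6 h and at 2.39 at 1 h. All of these comparisons share the 3 isotonic arrays, and the isotonic level of the msp genes differed between arrays, with means of 8.91, 8.26 and 9.41. The direct differences between 6 h and the other exposures do not use them. Without isotonic replicate 2 the fall of cnc-4 was -1.56 and under 3-fold.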

How the results depend on the processing

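With 3 arrays per group, and with no present calls used, changes near the background are limited in size. The direction of all 71 called genes that were named was kept under each alternative that measured them (38 of the 71 without _x_at and _s_at probe sets). With left-out arrays, other thresholds, filters or arrays in the fit, or 32 added, this was bound to hold. The 2 groups of these genes do not overlap, so the kept direction is no test of the calls there. The 179 calls at 6 h against isotonic (90 higher, 89 lower) became 80 (54 and 26) with 6 arrays only, 88 (42 and 46) with 32 added to each intensity, 77 (51 and 26) without _x_at and _s_at probe sets, and 369 (242 and 127) at 2-fold. With sperm probe sets left out, an alternative chosen after seeing the data, 51 were lower. Against 15 min, 1 h and 1 generation, the 198, 228 and 124 calls became 102, 113 and 71 with 32 added, 72, 94 and 39 without _x_at and _s_at probe sets, and 426, 418 and 269 at 2-fold. With sperm probe sets left out, 77 calls remained against 1 generation. The 53 probe sets apart from all 4 groups became 34 with 32 added, 8 without _x_at and _s_at probe sets, and 15 without sperm probe sets. For these counts the cause was not tested, beyond the fewer probe sets or samples that an alternative uses.

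Without any 1 array, the 179 ranged from 153 to 202, the rises from 76 to 116, the falls from 77 to 86, the 198 from 186 to 202, the 228 from 203 to 230, the 124 from 114 to 126 and the 53 from 49 to 58. The labels do not say whether the replicate numbers pair the samples. Deviations from the group means of 6 h and isotonic arrays with the same number correlated at 0.074, -0.018 and 0.116 across probe sets. For arrays with different numbers the values lay between -0.125 and 0.106, so they do not decide whether samples were paired. A replicate block gave 176 calls at 6 h against isotonic, 195, 221 and 120 against the other exposures, and 54 apart from all groups. Of the 71 named genes, 66 were called with the block.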

Other observations

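Housekeeping and turnover genes were nearly level at 6 h. None of 75 ribosomal protein genes, 33 proteasome genes, 31 genes of DNA replication and mitosis and 46 large chaperone genes was called, with median log2 fold changes of 0.02, -0.02, -0.06 and -0.12. In glycolysis, 7 of 16 genes had an unadjusted p under 0.05 with a positive sign and 1 with a negative sign. Over all 17118 genes these numbers were 1256 and 1155. The glycolysis median was 0.20, and none was called. The glyoxylate cycle gene icl-1 had log2 intensities of 12.50, 12.34 and 12.54 at 6 h, against 10.73, 11.15 and 11.51 on isotonic plates (log2 fold change 1.33, adjusted p = 0.000912 in limma), while the gluconeogenesis gene pck-2 stood at 0.63 (adjusted p = 0.000294), and both were under 3-fold. Of 43 glutathione S-transferase genes, 12 had an unadjusted p under 0.05 with a positive sign and 2 with a negative sign. The 1 called gene (against 0.444% of all genes called higher) was gst-10, whose call was lost without each array but isotonic replicate 1. Of 73 cytochrome P450 genes, 28 of them above the background in either group, none was called. Of 64 UDP-glucuronosyltransferase genes, 36 of them above the background, 1 was called lower (against 0.380% of all genes). No gene was called among 395 F-box and MATH genes, 51 neuropeptide genes of the flp and ins families and 81 hedgehog-related genes. Of these, only 101, 13 and 24 had a mean above the background in either group.

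Isotonic replicate 3 read the lowest of the isotonic arrays in scav-5, a CD36-like scavenger receptor gene, with 7.73, 7.42 and 7.28 at 6 h, against 5.95, 5.57 and 4.66 on isotonic plates (log2 fold change 2.08, adjusted p = 0.00153). In cyp-13B1 it read highest, with 5.07, 5.12 and 5.27 at 6 h, against 2.69, 2.67 and 4.78 on isotonic plates, and cyp-13B1 was not called (log2 fold change 1.77, adjusted p = 0.111).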
